A study of Homo sapiens with 4 samples.

Results

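RBM3 and CIRBP encode the best known cold-inducible RNA-binding proteins of mammalian cells. The reads counted for these genes were followed here through all 4 libraries of an RNA sequencing study of bladder cancer cells. The rows of the deposited count table named RBM3 and CIRBP were taken, 2 genes of 56303, together with the antisense gene RP11-1148L6.9, which overlaps RBM3. The study used T24T and EJ, both human lines derived from bladder carcinoma; the tables name the T24T columns T24. Either line received hsa_circ_0008399, a circular RNA (circ), or the vector alone (vector), and each of the 4 groups was sequenced as 1 library of total RNA. The design screened for genes downstream of the circular RNA. Elsewhere EJ has been described as sharing its origin with T24, from which T24T was derived, so the lines may not be independent models. Relatedness was not tested here.

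Both proteins have a single N-terminal RNA recognition motif followed by a tail rich in glycine and arginine. Mild cooling of mammalian cells raises both, while heat lowers them. RBM3 associates with ribosomes and mRNAs and is linked to translation and cell survival, and CIRBP binds the untranslated parts of stress-related mRNAs and moves into cytoplasmic stress granules. RBM3 is also raised by low oxygen. The labels give no culture temperature or oxygen level.

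The libraries held between 14703455 and 18057768 counts, and 17689 genes had enough reads to be tested. The labelled cell type was checked against markers. The keratin genes KRT7, KRT8 and KRT18 reached between 21.0 and 188 RPKM (reads per kilobase of exon, scaled to the library total) and vimentin (VIM) between 112.8 and 141.5 RPKM. The other epithelial markers were low, KRT19 at 0.0821 to 0.102 RPKM, EPCAM at 0.108 to 2.75 and CDH1 at 0 to 0.0288. Of 7 urothelial markers, 2 reached 1 RPKM in any library, UPK2 at 1.33 to 2.40 RPKM and UPK1A at 0.349 to 1.01. The urothelial markers KRT5 and UPK3A had 0 counts in all 4 libraries and GATA3 at most 0.0209 RPKM. PTPRC and CD3E, which mark leukocytes, had 0 counts as well, while the macrophage marker CD68 had 4.67 to 28.1 RPKM.

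RBM3 lies on the plus strand of chromosome X (48574449 to 48579066, hg38) and CIRBP on the plus strand of chromosome 19 (1259384 to 1274880). RefSeq places the start of CIRBP at 1269332, inside the span of the table. The promoters of the pair are shown so that what their start regions share and do not share can be read directly. Whether either promoter has a part in the changes of the counts was not tested. Each line gives the 250 bases before the RefSeq transcription start (GRCh38.p14, plus strand, chrX:48574234-48574483 for RBM3 and chr19:1269082-1269331 for CIRBP). Capitals mark matches, on either strand, to the GC box GGGCGG, to the CCAAT box, to the TATA motif TATAAA, to the core of the cAMP element, TGACG, and to paired heat shock units, written as GAANNTTC or TTCNNGAA. In CIRBP 2 neighbouring GC box matches overlap by a base.
RBM3: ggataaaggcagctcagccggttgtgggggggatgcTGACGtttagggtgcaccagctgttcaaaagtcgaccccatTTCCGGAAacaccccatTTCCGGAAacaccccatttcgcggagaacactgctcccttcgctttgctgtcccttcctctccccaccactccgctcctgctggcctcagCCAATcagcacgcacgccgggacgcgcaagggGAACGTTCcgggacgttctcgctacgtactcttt
CIRBP: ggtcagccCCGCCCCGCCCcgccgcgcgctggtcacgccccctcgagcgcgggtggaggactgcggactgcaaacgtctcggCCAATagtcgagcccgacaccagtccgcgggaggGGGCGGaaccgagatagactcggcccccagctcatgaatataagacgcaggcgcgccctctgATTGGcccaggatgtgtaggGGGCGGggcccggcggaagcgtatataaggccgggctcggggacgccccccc

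The start regions differed in composition. CIRBP had 4 GC boxes, the motif bound by SP1, and RBM3 had 0, while 42.6% of the 35116 promoters of the RefSeq table held at least 1. CCAAT occurred once in RBM3 and in 2 places in CIRBP, against 32.0% of all promoters with a match. RBM3 had 1 TGACG (21.2% of all promoters), 1 GAANNTTC (5.78%) and 2 TTCNNGAA (6.62%), and CIRBP had 0 of each. The exact letters TATAAA matched neither sequence (10.7% of all promoters). Other forms of the TATA motif were not searched, and the unmarked letters tatataag stand near the end of the CIRBP sequence. The GC content was 59.6% in RBM3 and 71.2% in CIRBP, with 19 and 30 CpG pairs, against medians of 58.0% and 11 over all promoters. A match is a description of the letters and was not tested as a binding site.

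Reads counted for RBM3 were about 3 to 4 times as abundant in circ libraries as in vector libraries. The gene whose exons form the circle is not given in the sources used here. If the construct carries RBM3 exons, its reads are part of every circ value of RBM3 here and below. RBM3 had 16010 counts in EJ circ and 4361 in EJ vector, and 13240 in T24T circ and 4641 in T24T vector. Per length this was 292 RPKM in EJ circ, 74.7 in EJ vector, 197 in T24T circ and 73.8 in T24T vector. Both circ libraries lay above both vector libraries, and the vector libraries of the lines were nearly alike. Ranked by RPKM among the 17689 tested genes, RBM3 stood at place 158 in EJ circ and 671 in EJ vector, and at place 254 in T24T circ and 701 in T24T vector.

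After TMM scaling of library totals (CPM below are counts divided by the scaled total; the scaling takes a factor per library from the bulk of genes), RBM3 was 3.93-fold higher in circ than in vector in EJ (exact 95% binomial interval 3.80 to 4.06) and 2.71-fold higher in T24T (2.62 to 2.80). These intervals cover counting error only, since each group had 1 library. At least a 2-fold rise in circ was seen in 3.49% of tested genes in EJ and 3.36% in T24T, and in 0.905% in both lines. Over both lines, with line as a block, the log2 fold change of RBM3 was 1.71 ± 0.10 (standard error from edgeR, n = 2 lines, edgeR adjusted p = 8.85e-14, higher in 2 of 2 lines). By the same test 7.13% of genes rose and 5.56% fell. RBM3 had the smallest p of all tested genes. Its log2 fold change was the 72nd highest of all 17689 tested genes and the 10th highest of the 12865 genes with a mean count of 50 or more. By log2 ratio within a line it ranked 30th in EJ and 144th in T24T among all tested genes.

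CIRBP also rose, by a smaller factor. Its counts were 764 in EJ circ and 513 in EJ vector, and 814 in T24T circ and 587 in T24T vector. This amounted to 8.16 RPKM in EJ circ, 5.15 in EJ vector, 7.08 in T24T circ and 5.47 in T24T vector, so both circ libraries again lay above both vector libraries. The scaled ratio of circ to vector was 1.59 in EJ (counting interval 1.42 to 1.78) and 1.32 in T24T (1.18 to 1.47). Over both lines the log2 fold change was 0.53 ± 0.10 (edgeR adjusted p = 0.000445, n = 2 lines, higher in 2 of 2). Among all 17689 tested genes, ratios at least as high as those of CIRBP in both lines were found in 598 others, against 33 for RBM3. A change of the size of CIRBP's was thus not particular to it. Its log2 fold change was the 371st highest of the 12865 genes with a mean count of 50 or more.

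Both calls and their standard errors rest on spread pooled over genes, because the fit has 1 residual degree of freedom. The standard errors are therefore not the spread between the lines. Between EJ and T24T, the log2 ratios of circ to vector had a standard deviation of 0.38 for RBM3 and 0.19 for CIRBP. CIRBP missed the threshold in DESeq2 (adjusted p = 0.0508), where RBM3 passed (adjusted p = 2.01e-31) and 1.05% of genes rose and 0.882% fell. Without the line block (edgeR adjusted p = 1 for each) and with limma on log2(RPKM + 1) (adjusted p = 0.106 for RBM3 and 0.143 for CIRBP) neither passed, and over all 11 alternatives adjusted p spanned 6.07e-97 to 1 for RBM3 and 7.80e-06 to 1 for CIRBP. The log2 fold changes themselves stayed between 1.66 and 1.73 for RBM3 and between 0.45 and 0.53 for CIRBP.

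**Figure D1:**
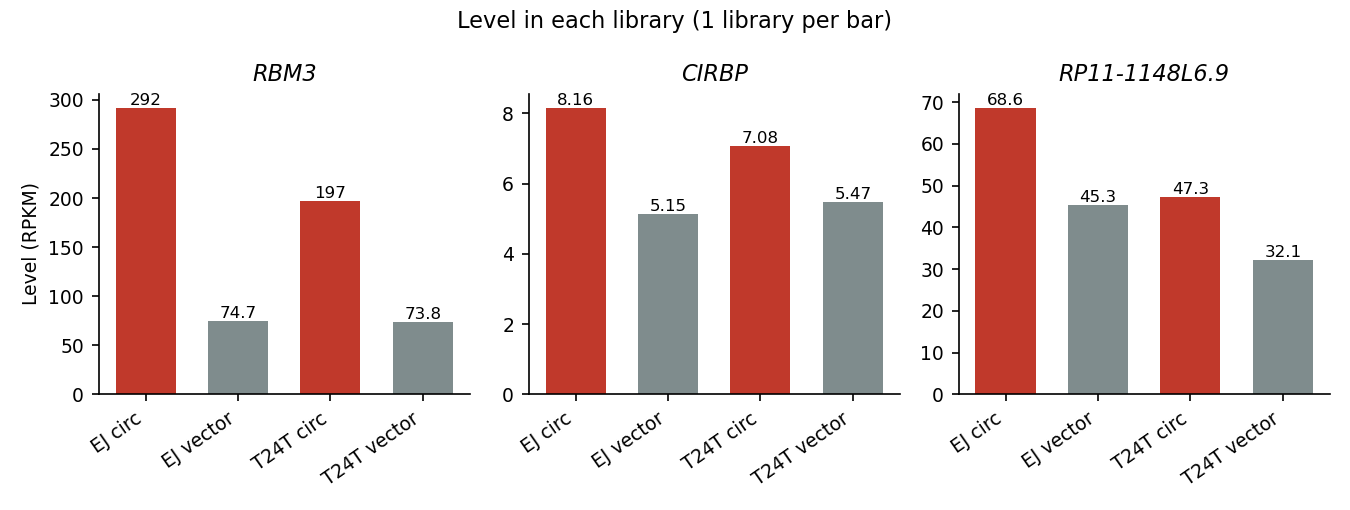
Bars give the level of RBM3, CIRBP and the antisense gene RP11-1148L6.9 in RPKM (y axis, from 0, a separate scale for each gene) in the 4 libraries (x axis), with circ libraries in red and vector libraries in grey. Each bar is 1 library, so no error bar is drawn; RBM3 stands at 292 and 197 RPKM in the circ libraries against 74.7 and 73.8 RPKM in the vector libraries.

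**Figure D2:**
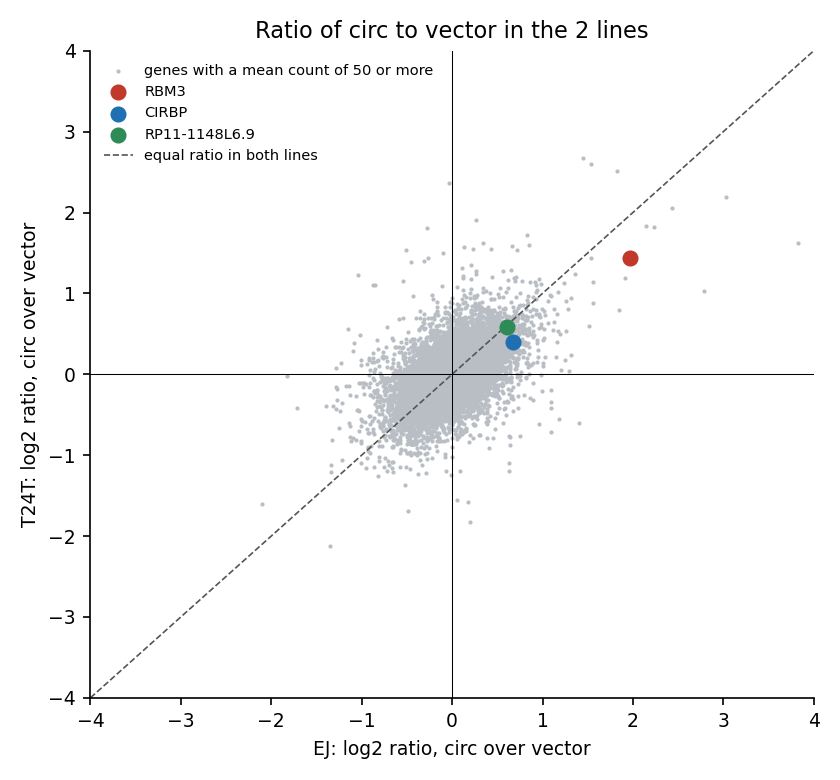
Each grey point is 1 of the 12865 genes with a mean count of 50 or more, placed by its log2 ratio of circ over vector in EJ (x axis) and in T24T (y axis), and the coloured points are RBM3, CIRBP and RP11-1148L6.9. RBM3 (1.97 in EJ, 1.44 in T24T) lies outside the cloud below the line of equal ratios, while CIRBP (0.67, 0.40) and RP11-1148L6.9 (0.60, 0.58) lie on its upper right side.

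The response was larger in EJ for both genes. The fold of RBM3 in T24T was 0.690 of its fold in EJ (95% counting interval 0.658 to 0.723), and that of CIRBP was 0.826 (0.708 to 0.964). Both intervals lie below 1 but cover counting error only, and with 1 library per group the difference between lines could not be tested against biological spread. A larger difference between the lines was found in 7.39% of genes with a mean count of 50 or more for RBM3 and in 29.1% for CIRBP.

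Between the lines, RBM3 was lower in T24T by the test and CIRBP did not pass. In vector cells RBM3 had 279 CPM after TMM scaling in T24T and 272 in EJ, and in circ cells 757 in T24T and 1069 in EJ. With transfection as a block, T24T over EJ gave a log2 fold change of -0.23 ± 0.09 for RBM3 (edgeR adjusted p = 0.0427), in a comparison where 41.4% of genes passed, 21.9% being higher and 19.5% lower in T24T. The circ libraries were ordered alike on every scale, while the vector libraries changed order with the scaling (RPKM put T24T at 73.8 and EJ at 74.7). The call was lost in DESeq2 (adjusted p = 0.244) and in 4 other alternatives. CIRBP had 35.3 scaled CPM in T24T vector and 32.0 in EJ vector, and 46.5 in T24T circ and 51.0 in EJ circ. Its log2 fold change of T24T over EJ was -0.0022 ± 0.10 (edgeR adjusted p = 0.990).

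Within each library, RBM3 was the more abundant of the pair per kilobase. The ratio of RBM3 to CIRBP in RPKM, which does not depend on library scaling, was 35.8 in EJ circ and 14.5 in EJ vector, and 27.8 in T24T circ and 13.5 in T24T vector. The ratio was thus higher with circ in each line. Its size depends on gene length: the deposited RPKM uses all annotated exon bases, 3731 for RBM3 and 6368 for CIRBP, and GENCODE release 29 lists 11 transcripts of RBM3 and 46 of CIRBP, 10 of these with a retained intron. With the median length of the consensus coding transcripts (1646 bases for RBM3 and 1081 for CIRBP), the ratio was 13.8 in EJ circ and 5.58 in EJ vector, and 10.7 in T24T circ and 5.19 in T24T vector.

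The first exon of RBM3 is overlapped from the opposite strand by RP11-1148L6.9, a noncoding gene of 549 exon bases (chromosome X, 48568014 to 48574860, minus strand). Of its exon interval at 48574479 to 48574860, 95 of 382 bases are also exon bases of RBM3, and its other exon interval, of 167 bases, lies upstream of RBM3. RP11-1148L6.9 had 554 counts in EJ circ and 389 in EJ vector, and 469 in T24T circ and 297 in T24T vector. In RPKM this was 68.6 in EJ circ and 45.3 in EJ vector, and 47.3 in T24T circ and 32.1 in T24T vector. It rose as well, and the fit gave 0.60 ± 0.11 as its log2 fold change (edgeR adjusted p = 0.000338, n = 2 lines, higher in 2 of 2; DESeq2 adjusted p = 0.0540).

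The antisense gene rose by a smaller factor than RBM3, and the counting intervals of the 2 genes do not overlap in either line. The scaled ratio of circ to vector was 1.52 in EJ (counting interval 1.34 to 1.74) and 1.499 in T24T (1.29 to 1.74) for RP11-1148L6.9, and its fold in T24T was 0.984 of that in EJ (0.810 to 1.20). Its counts amounted to 3.46% of those of RBM3 in EJ circ and 8.92% in EJ vector, and to 3.54% in T24T circ and 6.399% in T24T vector. The use of strand in counting is not given in the sources used here. Without strand, reads in the shared 95 bases cannot be assigned to either gene. The other bases of the exon interval at 48574479 to 48574860 lie between exon intervals 1 and 2 of RBM3. Reads of unspliced RBM3 RNA there would then count for RP11-1148L6.9. Both the level and the rise of RP11-1148L6.9 are therefore uncertain, and the part of RBM3 in them was not tested. RP11-1148L6.9 also differed between the lines (-0.45 ± 0.11 for T24T over EJ, edgeR adjusted p = 0.00110). CIRBP is overlapped by CIRBP-AS1 on the minus strand, with 4 shared exon bases. CIRBP-AS1 had 3 counts in EJ circ and 3 in EJ vector, and 11 in T24T circ and 6 in T24T vector, too few to show a change (edgeR adjusted p = 0.650).

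**Figure D3:**
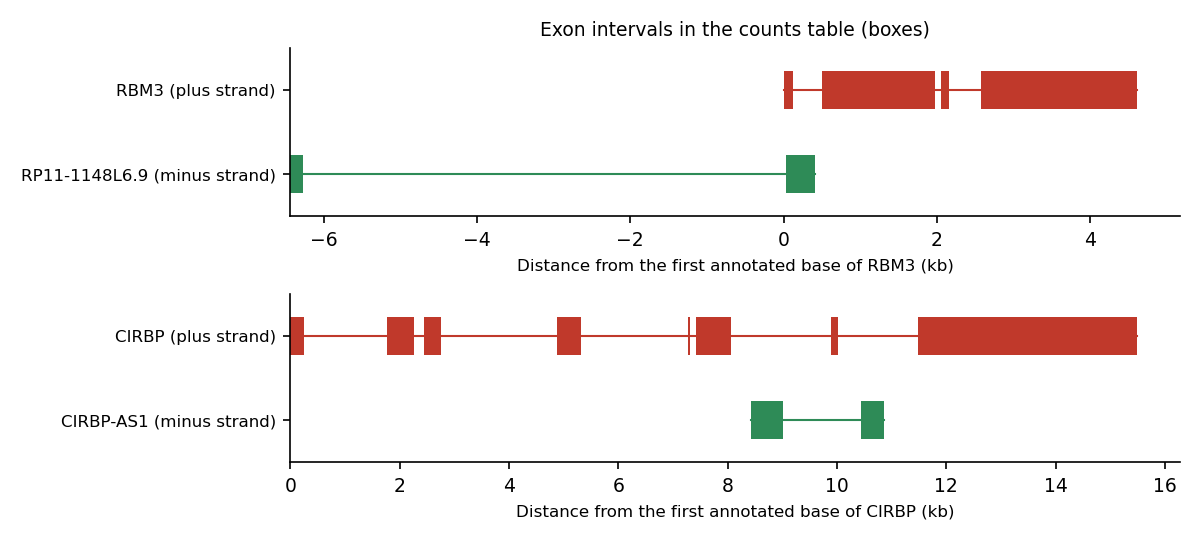
Boxes are the merged exon intervals of the count table, drawn to scale by distance in kb from the first annotated base of RBM3 (upper panel) and of CIRBP (lower panel), with the plus-strand gene in red and its minus-strand partner in green. RP11-1148L6.9 shares 95 exon bases with the first exon of RBM3, and CIRBP-AS1 shares 4 with CIRBP.

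The table holds 1 value per gene and none for the circular RNA, and the gene whose exons form the circle is not given in the sources used here. If the construct carries RBM3 exons, its reads would be counted with RBM3, and endogenous mRNA and construct cannot be told apart in these counts.

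Apart from the overlapping RP11-1148L6.9, none of the tested genes around RBM3 passed the test upward. Of 11 genes within 100 kb that do not overlap RBM3 by the deposited coordinates, 8 were tested, 0 rose and 3 fell. Over all tested genes 7.13% rose and 5.56% fell. The median log2 fold change of the 8 was -0.50, against 0.0018 over all tested genes. EBP, a sterol isomerase gene of cholesterol synthesis, had 1423 counts in EJ circ and 2029 in EJ vector, and 1276 in T24T circ and 1746 in T24T vector, and fell (-0.47 ± 0.08, edgeR adjusted p = 0.000252; DESeq2 adjusted p = 0.0138). TBC1D25, which encodes a Rab GTPase-activating protein (-0.52 ± 0.14, edgeR adjusted p = 0.0132), and WDR13 (-0.40 ± 0.13, edgeR adjusted p = 0.0446) fell too, without an adjusted p from DESeq2. FTSJ1, an RNA methyltransferase gene (-0.08 ± 0.12), and PORCN, whose product acylates Wnt ligands (-0.57 ± 0.20), did not pass. The low-count genes RP11-1148L6.5 and WAS, with 13 to 27 and 7 to 18 counts per library, did not pass either. RP11-1148L6.5, on the minus strand, lies beyond the end of RBM3 in the table but wholly within the longer RefSeq span of RBM3. RP11-1148L6.8 lies on the strand of RBM3 beyond the end of RBM3 in the table, starting within the RefSeq span of RBM3 and ending just past it. RP11-1148L6.8 had 4 counts in EJ circ and 11 in EJ vector, and 8 in T24T circ and 10 in T24T vector, too few to show a change (-0.80 ± 0.58, edgeR adjusted p = 0.419).

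Around CIRBP a single gene passed. Of 13 genes within 100 kb that do not overlap it, 9 were tested, 0 rose and 1 fell, which is near the shares over all tested genes (7.13% rose, 5.56% fell), with a median log2 fold change of -0.15. The gene that fell was STK11, which encodes the kinase LKB1 (-0.27 ± 0.09, edgeR adjusted p = 0.0427; DESeq2 adjusted p = 0.335). C19orf24, whose start lies 16.1 kb from that of CIRBP, was at -0.15 ± 0.18, MIDN, on the other side, at -0.19 ± 0.13, and the pseudogene HMGB2P1 at 0.33 ± 0.29. SBNO2 (-0.10 ± 0.08), MUM1 (-0.10 ± 0.10), ATP5D (-0.07 ± 0.10) and CBARP (-0.26 ± 0.20) did not pass.

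**Figure D4:**
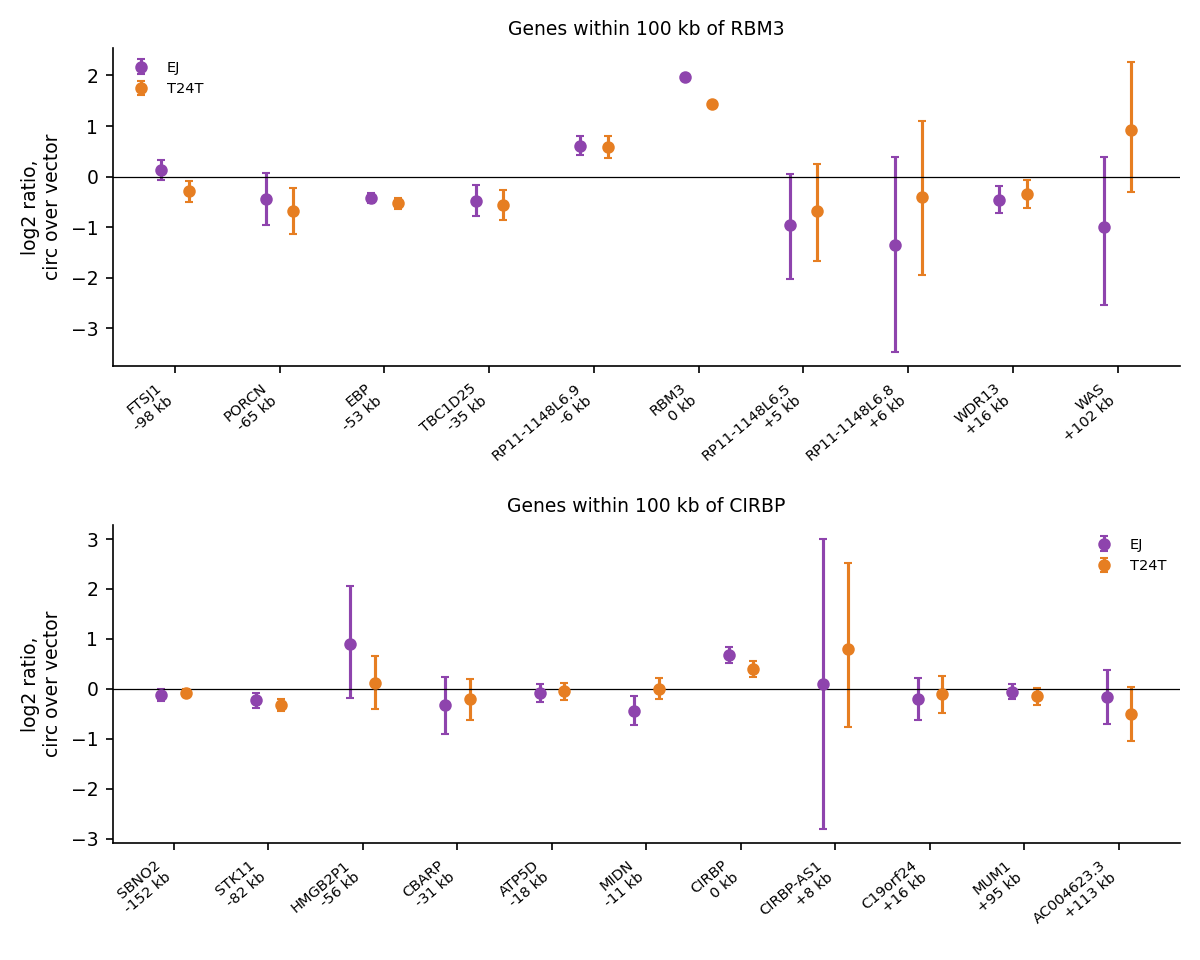
Points give the log2 ratio of circ over vector (y axis) in EJ (purple) and T24T (orange) for RBM3, CIRBP and the tested genes within 100 kb of each, ordered along the chromosome with the distance between gene starts in kb (x axis); bars are 95% counting intervals. RBM3, CIRBP and RP11-1148L6.9 lie above 0 in both lines, while EBP, TBC1D25, WDR13 and STK11 lie below 0 in both.

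The lists of related genes are small, and counts of 0 or 1 in them lie near the shares over all tested genes, 7.13% rising and 5.56% falling. Among genes with a related RNA recognition motif, 2 of 3 were tested and 0 passed: RBMX, a splicing regulator, was at 0.19 ± 0.08 and RBMXL1, a retrocopy whose reads can be confused with those of RBMX, at -0.05 ± 0.13. Of 8 cold shock domain genes 5 were tested, 0 rose and 1 fell, with a median log2 fold change of -0.06. CARHSP1, which encodes a small single-stranded nucleic acid binding protein, fell (-0.36 ± 0.12, edgeR adjusted p = 0.0475), a call lost with a minimum of 50 counts in each line. YBX1, with 57715 to 70809 counts per library the most abundant of them by count, was at -0.02 ± 0.07 and YBX3 at -0.20 ± 0.08.

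Of 10 genes described as controllers or modifiers of RBM3 or CIRBP, 8 were tested and 0 passed in edgeR (2 at an unadjusted p under 0.05, as were 4567 of all 17689; median log2 fold change -0.02), and 0 of the 6 with an adjusted p passed in DESeq2. HNRNPH1, described in the splicing control of RBM3, had 11594 counts in EJ circ and 10060 in EJ vector, and 13179 in T24T circ and 11587 in T24T vector (0.21 ± 0.08, edgeR adjusted p = 0.0910). The splicing factor gene SRSF5, itself described as cold-inducible, was close to it (0.22 ± 0.08, edgeR adjusted p = 0.0913). The methyltransferase gene PRMT1 (-0.02 ± 0.08) and the nuclear import receptor gene TNPO1 (0.15 ± 0.09) did not pass. TRPV4, a temperature-gated channel, had 0 counts in 3 libraries and 1 in T24T vector, and TRPM8 7 to 13 per library.

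Of 9 mRNAs described as targets of RBM3 or CIRBP, all were tested, 0 rose and 1 fell (median log2 fold change 0.04), near the shares over all tested genes. RTN3, a reticulon gene whose mRNA RBM3 binds in mouse neurons, was the one that fell. It had 1056 counts in EJ circ and 1594 in EJ vector, and 1028 in T24T circ and 1442 in T24T vector (-0.53 ± 0.09, edgeR adjusted p = 7.08e-05). The circ libraries thus lay below the vector libraries in both lines, the opposite of RBM3. The chemokine gene CXCL8 (-0.15 ± 0.09), VEGFA (0.11 ± 0.09), the thioredoxin gene TXN (0.04 ± 0.08) and YAP1 (-0.12 ± 0.09) did not pass.

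Several RNA-binding protein genes with RGG boxes rose modestly. All 25 genes of this list, which also holds stress granule components, were tested, 6 rose and 0 fell, where 7.13% of all tested genes rose, with a median log2 fold change of 0.02. Among those that rose were HNRNPU (0.49 ± 0.08), which encodes a nuclear scaffold protein, EWSR1 (0.40 ± 0.08) and TAF15 (0.38 ± 0.08), which encode nuclear RNA-binding proteins, the nucleolin gene NCL (0.34 ± 0.07) and HNRNPD (0.28 ± 0.08), which encodes the mRNA decay factor AUF1. The edgeR adjusted p of these named genes lay between 5.13e-05 and 0.0155, and 4 of them also passed in DESeq2, HNRNPD being the exception. The stress granule genes G3BP1 (-0.10 ± 0.08), TIA1 (-0.26 ± 0.11) and USP10 (-0.22 ± 0.08) did not pass, nor did HNRNPA1 (-0.06 ± 0.07) and HNRNPA2B1 (-0.07 ± 0.07), 2 of the most abundant members by count.

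**Figure D5:**
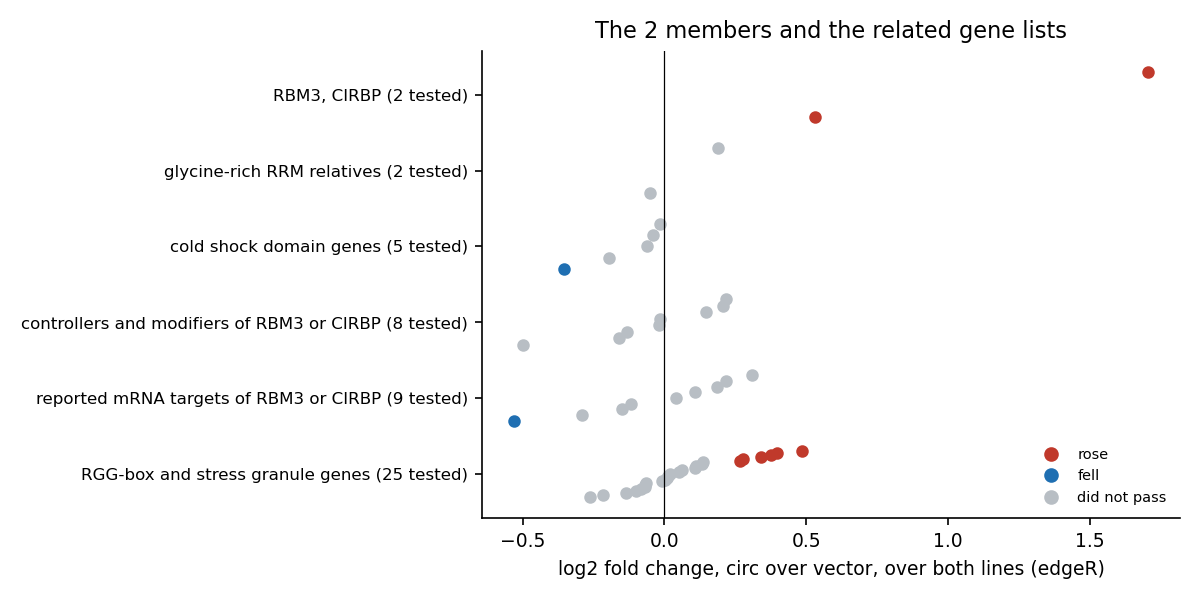
Each point is the log2 fold change of circ over vector over both lines (x axis) of 1 tested gene, in rows for RBM3 and CIRBP and for the 5 related gene lists; red genes rose, blue genes fell and grey genes did not pass. RBM3 at 1.71 lies far to the right of every other gene shown, and CIRBP at 0.53 lies beside the highest RGG-box gene, HNRNPU at 0.49.

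The genes nearest to each of the pair in pattern were taken by the distance between centred log2 CPM over the 4 libraries, among 10711 named genes with 50 or more counts in every library. Nearest to RBM3 were EFCAB2 (distance 0.67), IFIT3 (0.71), CPT1B (0.71), ZFR (0.75) and YJEFN3 (0.79), whose log2 fold changes of 0.99 to 1.11 were all below the 1.71 of RBM3. ZFR, which encodes a zinc finger protein that binds double-stranded RNA, had 2699 counts in EJ circ and 1349 in EJ vector, and 3103 in T24T circ and 1502 in T24T vector. Nearest to CIRBP were NBPF14 (0.05), INTS3 (0.05), UTP6 (0.05), C3orf62 (0.07) and SCLY (0.08), all closer than any gene was to RBM3. INTS3, a subunit gene of the Integrator complex, had log2 ratios of circ to vector of 0.43 (T24T) and 0.62 (EJ), and UTP6, a gene of ribosomal RNA processing, 0.39 and 0.62, beside 0.40 and 0.67 for CIRBP. RBM3 and CIRBP lay 1.20 apart, so that CIRBP ranked 107th among the genes near RBM3 and RBM3 10020th among those near CIRBP. The values were centred but not scaled, so this distance depends on the size of a change. The ranks therefore do not show unlike directions, and both genes were higher in circ in both lines.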

How the data were processed

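Per the submitters' processing notes, Trimmomatic and HISAT2 were used with the genome build hg38. Their versions, the counter, the annotation and any use of strand are not given in the sources used here. The authors deposited raw read counts for 56303 genes and RPKM values for the 29817 genes with a read. Per the file headers both tables give exon coordinates and a gene length, and 100% of the RPKM values equal count / length / total within a relative tolerance of 1e-06. Columns were matched to samples by their descriptions, and 0 sample columns were left out. Intervals and ranks cover counting error or order only, at 14703455 to 18057768 counts per library.

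Genes with 10 or more counts in 1 library and 20 or more over all 4 were kept (17689). edgeR 4.0.16 (R 4.3.3) quasi-likelihood tests with TMM scaling had line and transfection in 1 model, leaving 1 residual degree of freedom, with 30.5 prior degrees of freedom and Benjamini-Hochberg adjustment over all tested genes at 0.05. Libraries were not stated to be separate cultures, so p-values do not measure the spread between cultures. They rest mainly on spread pooled over genes, and the 1 residual degree of freedom is the difference of the circ ratio between the lines. Log2 ratios within a line used a prior count of 2. On simulated counts for circ over vector (17689 genes) 94.0% of 1.5-fold rises, 84.0% of 1.5-fold falls and 100% of 3-fold changes either way were recovered, and 0.040% of unchanged genes were called. The simulated spread was the one estimated by the same fit. Changes were planted only in genes of high mean count and were equal in both lines. These rates hold for that setting and do not show the error rate in the real libraries. DESeq2 1.42.0, limma 3.58.1 and other scalings and filters were tried as alternatives. Removal of GC and length trends (80.9% of tested genes had a GC value) and the coding transcript length were added after seeing the data. Genes were named by a rule: RBM3, CIRBP and overlapping genes always, from each list and each 100 kb neighbourhood those that passed and the ones with the most counts, and the 5 nearest in pattern. Some genes that this rule takes are not reported here. The members, lists and rules were chosen with earlier results of these data known. Promoters are from RefSeq (GRCh38.p14, 2 of 2 genes matched).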

Additional observations from a re-analysis of the deposited data

Results flagged for a closer look

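Among the genes described, 3 of the RGG-box and stress granule list moved in opposite directions in the lines, each beyond its own counting interval. Opposite directions were common: of all 17689 tested genes, 5915 were higher and 5705 were lower with circ in both lines, and the remaining genes did not move alike. How many of those lay beyond their counting intervals was not counted, and such intervals are narrow for genes with many counts. The difference was not tested, since each group had 1 library. For CAPRIN1 the log2 ratio of circ to vector was -0.0758 (T24T) and 0.2039 (EJ), for FMR1 it was 0.1375 (T24T) and -0.1277 (EJ), and for FXR1 it was 0.0533 (T24T) and -0.0724 (EJ). RBM3, CIRBP and RP11-1148L6.9 were higher in circ in both lines.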

How the results depend on the processing

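No paired analysis by replicate number was possible because each group had 1 library; the line served as the block. RBM3, CIRBP and RP11-1148L6.9 were higher with circ under all alternatives run, and their ratios within each line stayed inside the counting interval under other scalings, prior counts and RPKM pseudocounts. Calls were lost as follows, and the causes were not tested. Without the replicate block (line left out), the log2 fold changes were 1.73 for RBM3, 0.53 for CIRBP and 0.60 for RP11-1148L6.9, and 0 genes rose and 0 fell in edgeR (397 at an unadjusted p under 0.05; no other tool was run without the block on counts). Limma on log2(RPKM + 1) gave 1.68, 0.45 and 0.57, and on log2(RPKM + 0.1) 1.69, 0.51 and 0.58, for RBM3, CIRBP and RP11-1148L6.9, with 0 genes rising and 0 falling in each (3588 and 3713 unadjusted). DESeq2 with the line as block gave 0.52 for CIRBP and 0.59 for RP11-1148L6.9, and called 185 rises and 156 falls against 1262 and 984 in edgeR.

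For T24T over EJ, the RBM3 call was lost with a minimum of 50 counts in each line (-0.21), DESeq2 (-0.25), limma on either RPKM scale (-0.29 and -0.29) and with transfection left out as the replicate block (-0.37). That of RP11-1148L6.9 was lost in DESeq2 (-0.47) and without the block (-0.45). The fall of CARHSP1 was lost with 50 counts in each line and without the block (0 cold shock domain genes each), and DESeq2 gave it no adjusted p (0 falls in that list); without the block 0 reported targets fell and 0 RGG-box genes rose. By coding transcript length, RBM3 over CIRBP was 13.8 in EJ circ, 5.58 in EJ vector, 10.7 in T24T circ and 5.19 in T24T vector.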
